A study of Mus musculus with 4 samples.

Results

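Hemidesmosomes rivet the basal cells of stratified epithelia to the basement membrane beneath them. On the cell's side an integrin made of Itga6 and Itgb4 and the transmembrane collagen Col17a1 connect, through the plakins Plec and Dst, to keratin filaments. On the matrix side the integrin holds laminin-332, a trimer secreted by the epithelial cell itself. In the oral mucosa and the epidermis hemidesmosomes are found in the basal layer, though several of their genes are also expressed in other cell types.

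The 9 genes described here are Itga6, Itgb4, Col17a1, Dst, Plec, Cd151, Lama3, Lamb3 and Col4a3bp. They were taken by symbol from a table of 37574 genes, and each symbol had 1 row. All 9 were among the 16219 genes the authors tested. Col4a3bp encodes a ceramide transfer protein. It carries a collagen name because its product was described as binding the type IV collagen chain of Col4a3, and it is not a structural part of the hemidesmosome.

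RNA was sequenced from oral tumours of C57BL/6 mice that carried Bmi1CreER and tdTomato and had received the carcinogen 4NQO over 26 weeks. All tumours were taken 24 hours after tamoxifen, so carcinogen, tamoxifen and both alleles are common to every sample. Cells positive for EpCAM, an epithelial surface protein, were sorted by Tomato fluorescence into a Tomato-negative and a Tomato-positive fraction, with 2 samples of each and 4 in all. The Tomato label marks cells in which the Bmi1-driven Cre was active after tamoxifen was given. The negative fraction holds every other EpCAM-positive cell, which can include cells with Bmi1 RNA. Neither the age of the mice nor whether both samples of a fraction are from different mice is given in the labels.

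FPKM values count sequenced fragments relative to transcript length and library size. The authors joined the samples of a fraction into 1 value, and no SD can be given. The spread between samples enters only through the p-values and q-values of their Cuffdiff test, and the depth per sample is unknown. A gene was counted as higher or lower when its q was below 0.05. All FPKM values and every p and q below are from the authors' deposited table, and folds are Tomato-positive over Tomato-negative, computed from its FPKM. Bmi1, whose promoter drives the label, stood at 3.11 and 7.03 FPKM in the negative and positive fractions, and Epcam at 25.1 and 46.4 FPKM. Both were higher in Tomato-positive cells, at q = 0.00109 and q = 0.000405 in the authors' deposited table.

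RefSeq promoter windows, from 250 bases before to 50 bases after a start site, were at hand for 5 of the 9 genes, Col17a1, Lamb3, Cd151, Dst and Col4a3bp. For each of these the first listed window is shown, which need not be at the start site used in these cells. Dst has a second window at chr1:34160010-34160309, and which form of Dst starts at either is not given in the sources used here. The 5 genes fall on both sides of a 2-fold rise. Col17a1 and Lamb3 rose more than 2-fold, while Cd151 and Dst rose less and Col4a3bp did not pass the test. Capitals mark the GC box GGGCGG and the TATA box TATAAA, found on either strand. Coordinates of these windows are in GRCm38.p6, not in the mm9 of the expression table.
Col17a1 (chr19:47691993-47692292, minus strand): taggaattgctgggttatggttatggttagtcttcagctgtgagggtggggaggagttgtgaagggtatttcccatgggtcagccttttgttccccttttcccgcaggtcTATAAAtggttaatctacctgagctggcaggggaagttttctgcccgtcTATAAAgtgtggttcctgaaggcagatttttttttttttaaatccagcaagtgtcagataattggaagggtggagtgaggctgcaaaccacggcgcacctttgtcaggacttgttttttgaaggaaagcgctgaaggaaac
Lamb3 (chr1:193301744-193302043, plus strand): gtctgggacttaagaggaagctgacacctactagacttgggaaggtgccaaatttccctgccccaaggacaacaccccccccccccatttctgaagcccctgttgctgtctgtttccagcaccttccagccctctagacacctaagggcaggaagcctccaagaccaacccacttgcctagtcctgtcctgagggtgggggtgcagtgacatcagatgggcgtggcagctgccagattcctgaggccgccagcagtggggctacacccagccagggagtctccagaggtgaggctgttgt
Cd151 (chr7:141467112-141467411, plus strand): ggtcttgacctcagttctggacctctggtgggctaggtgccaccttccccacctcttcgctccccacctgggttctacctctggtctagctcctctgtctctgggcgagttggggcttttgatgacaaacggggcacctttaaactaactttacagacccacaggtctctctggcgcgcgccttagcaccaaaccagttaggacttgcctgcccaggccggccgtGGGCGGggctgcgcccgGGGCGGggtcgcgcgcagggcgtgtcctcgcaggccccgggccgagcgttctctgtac
Dst (chr1:34011345-34011644, plus strand): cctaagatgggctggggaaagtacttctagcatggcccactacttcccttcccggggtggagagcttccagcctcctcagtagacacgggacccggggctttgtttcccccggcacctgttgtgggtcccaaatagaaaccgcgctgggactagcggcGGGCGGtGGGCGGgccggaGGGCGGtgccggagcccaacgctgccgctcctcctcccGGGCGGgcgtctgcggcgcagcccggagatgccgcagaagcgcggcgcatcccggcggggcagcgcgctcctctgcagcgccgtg
Col4a3bp, listed by RefSeq as Cert1 (chr13:96542485-96542784, plus strand): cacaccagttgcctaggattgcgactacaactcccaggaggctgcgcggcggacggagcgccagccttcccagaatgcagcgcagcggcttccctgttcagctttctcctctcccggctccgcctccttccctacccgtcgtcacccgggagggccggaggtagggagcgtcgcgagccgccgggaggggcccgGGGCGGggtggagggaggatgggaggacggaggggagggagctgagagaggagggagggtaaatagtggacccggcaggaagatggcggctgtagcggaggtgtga

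The Col17a1 window held 2 matches to the letters of the TATA box, at offsets of -140 and -91 bases from the start site, and no GC box. That of Lamb3 held neither. GC boxes stood in the windows of Cd151 (2 matches), Dst (4 matches) and Col4a3bp (1 match). G and C made up 46.3% of the Col17a1 window, 59.3% of that of Lamb3, 64.3% of that of Cd151, 70.3% of that of Dst and 68.3% of that of Col4a3bp, beside a median of 52.7% over all 32841 promoter windows. The second listed windows of Dst (46.0% G and C), Cd151 (56.7%) and Lamb3 (59.3%), which are not shown, held neither box, so a GC box was not found in every window of Dst or Cd151. A GC box was present in 35.7% of all windows and a TATA box in 13.6%. The AP-1 motif TGANTCA was found in 0 of the 8 windows of these 5 genes and in 7.81% of all windows. The p53 family core motif was searched on both strands in a loose form. Only the C that opens and the G that closes each core were fixed. Any letters were allowed inside the cores and in the spacer between them. This loose form was found in all 8 of these windows and in 70.2% of all windows, so a match need not be a p53 family core. These matches describe the letters of short windows, and the table holds no measurement of factor binding. A link between these letters and the folds was not tested.

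All 9 genes had a higher FPKM in Tomato-positive than in Tomato-negative cells, and 8 of the 9 passed the test. That is 88.9% called higher and 0 lower, where 13.0% of all tested genes were called higher and 14.2% lower. The genes for secreted laminin chains, the integrin and the transmembrane collagen rose by between 3.56-fold and 11.9-fold. Those for the intracellular plakins and the tetraspanin rose by less than 2-fold. The median log2 fold of the 9 genes was 1.83, beside 0.02 over the 16010 tested genes with values above 0 in both fractions. With a minimum of 2-fold added, 5 of the 9 remained called, beside 7.11% of tested genes called higher under that rule. Cuffdiff's lowest p-value, 5e-05, was shared by 2004 genes, and 6 of the 9 stood at it. Their q-values are therefore equal and do not rank them.

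**Figure D1:**
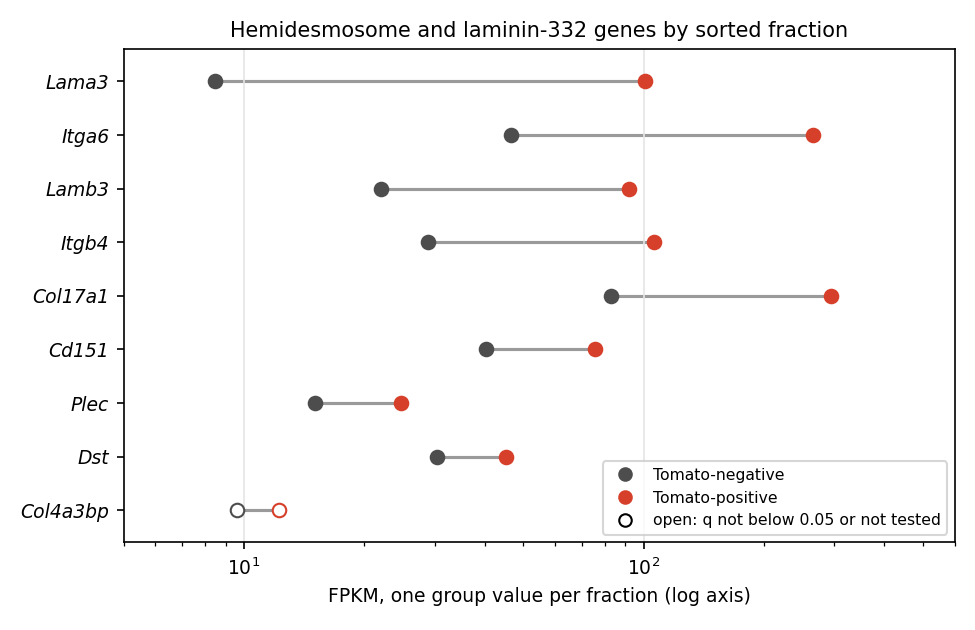
FPKM of the 9 genes on a log axis, 1 group value for each sorted fraction (grey, Tomato-negative; red, Tomato-positive), ordered by fold and without error bars because no values per sample were used. The red point lies to the right for all 9, the distance is longest for Lama3 (8.45 to 101 FPKM), and the open points of Col4a3bp mark q = 0.145 in the authors' deposited table.

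Lama3 (ENSMUSG00000024421, chromosome 18, 12492532 to 12741522, mm9) encodes the alpha chain of laminin-332, whose globular end binds the integrin. Its level was 8.45 FPKM in the negative and 101 FPKM in the positive fraction, a rise of 11.9-fold. This was the lowest of the 9 levels in the negative fraction and the fourth highest in the positive fraction, and 117 of the 16010 genes had a larger rise. The log2 fold was 3.58 with q = 0.000405 in the authors' deposited table. The gene makes a short and a long form of the chain, and 1 value per gene does not separate them.

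Lamb3 (ENSMUSG00000026639, chromosome 1, 195128150 to 195170072, mm9) encodes the beta chain found in laminin-332. It rose 4.18-fold, from 22.0 to 91.7 FPKM, with a log2 fold of 2.06 and q = 0.000405 in the authors' deposited table. The ratio of the FPKM of these 2 genes differed in value between the fractions. The FPKM of Lama3 was 0.385 times that of Lamb3 in the negative fraction and 1.10 times in the positive fraction. The ratios carry no error, and a difference between them was not tested.

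Of 8 other laminin chain genes 6 were tested, and Cuffdiff called 0 higher and 2 lower, with a median log2 fold of -0.30. At an unadjusted p below 0.05 the count of higher ones was 1, for Lamb1, with p = 0.0237 from Cuffdiff in the authors' deposited table. Lama2, the alpha chain of muscle and nerve basement membranes, fell from 1.92 to 0.301 FPKM, and Lamb2 fell from 7.66 to 3.28 FPKM, both at q = 0.000405 in the authors' deposited table. Lama5, a chain of most epithelial and endothelial basement membranes, stood at 23.0 and 19.3 FPKM, and Lamc1, the widely used gamma chain, at 14.5 and 14.7 FPKM. Lama4 (7.78 and 6.13 FPKM) and Lamb1 (3.91 and 7.90 FPKM) did not pass either, and Lama1 and Lamc3, below 0.3 FPKM in both, were not tested.

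**Figure D2:**
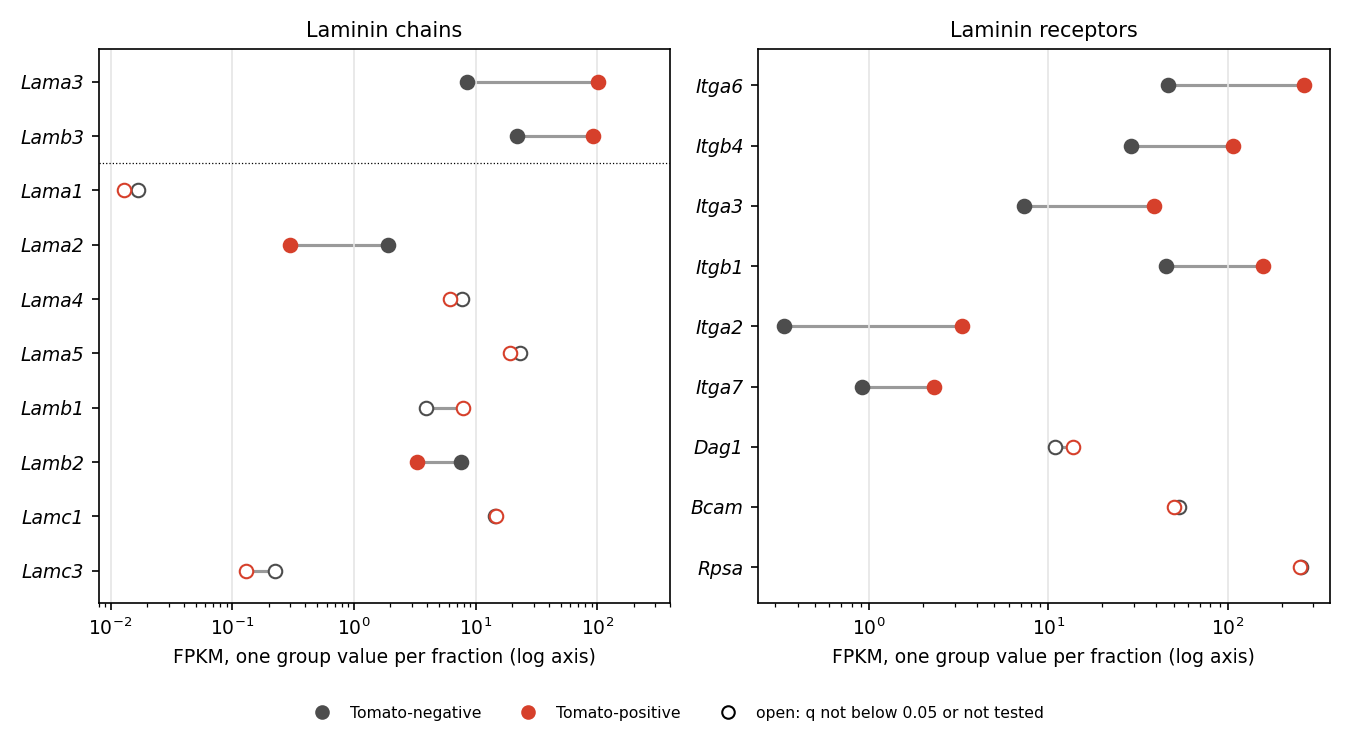
FPKM of laminin chain genes (left, Lama3 and Lamb3 above the dotted line) and of the laminin receptor genes (right), on log axes, 1 group value per fraction. Lama3 and Lamb3 move to the right, to 101 and 91.7 FPKM, while Lama2 and Lamb2 move to the left, and Itga6 and Itgb4 rise with Itga3, Itgb1, Itga2 and Itga7.

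The integrin chains that bind laminin-332 in the hemidesmosome both rose. Itga6 (ENSMUSG00000027111, chromosome 2, 71583672 to 71696473, mm9) went from 46.6 to 265 FPKM, a 5.68-fold rise with a log2 fold of 2.51. Itgb4 (ENSMUSG00000020758, chromosome 11, 115836022 to 115869726, mm9), whose long cytoplasmic tail holds the plakins, went from 28.9 to 106 FPKM, a 3.68-fold rise with a log2 fold of 1.88. Both had q = 0.000405 in the authors' deposited table. Itga6 exceeded Itgb4 in each fraction, 1.62 times in the negative and 2.49 times in the positive one. Itga6 can also pair with Itgb1, so its level need not follow that of Itgb4.

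Of 7 genes listed as laminin receptors outside hemidesmosomes, 4 were called higher and 0 lower, also at an unadjusted p below 0.05. Their median log2 fold was 1.33. Itga3 and Itgb1 together form the other main laminin-332 receptor of keratinocytes. Itga3 rose from 7.32 to 38.9 FPKM and Itgb1 from 45.3 to 157 FPKM, both at q = 0.000405 in the authors' deposited table. The level of Itga6 relative to Itga3 was 6.37 in the negative and 6.81 in the positive fraction, and that of Itgb4 relative to Itgb1 was 0.637 and 0.677. Itga2, a collagen and laminin receptor chain, had the largest fold of the 7, from 0.336 to 3.31 FPKM, and Itga7 rose from 0.915 to 2.30 FPKM. The receptors that are not integrins did not pass the test. Among them Rpsa, a ribosomal protein gene also named as a laminin receptor, stood at 255 and 253 FPKM. Bcam stood at 53.4 and 50.1 FPKM and Dag1 at 10.8 and 13.7 FPKM.

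Col17a1 (ENSMUSG00000025064, chromosome 19, 47720833 to 47766584, mm9) encodes the collagen that spans the membrane of type I hemidesmosomes and reaches laminin-332 outside the cell. It was the most abundant of the 9 genes in both fractions, at 82.6 FPKM in the negative and 294 FPKM in the positive one. The 3.56-fold rise, a log2 fold of 1.83, had q = 0.000405 in the authors' deposited table. Its level relative to Itgb4 was 2.86 in the negative and 2.77 in the positive fraction.

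The plakins link the receptors to keratin filaments, and their genes rose least among those that passed. Plec (ENSMUSG00000022565, chromosome 15, 76001403 to 76073871, mm9), which encodes plectin, went from 15.0 to 24.7 FPKM, a 1.64-fold rise with q = 0.00426 in the authors' deposited table. Dst (ENSMUSG00000026131, chromosome 1, 33965124 to 34365495, mm9) went from 30.4 to 45.3 FPKM, a 1.49-fold rise with q = 0.00890 in the authors' deposited table. Dst encodes the epithelial plakin of type I hemidesmosomes, a bullous pemphigoid antigen, and also larger forms of nerve and muscle. Plec makes forms that differ at the start of the protein in skin and muscle. The deposited values join the forms of each gene, so the epithelial forms cannot be read alone. Against Itgb4, which plectin binds, the level of Plec was 0.521 in the negative and 0.232 in the positive fraction.

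None of the 4 other plakins found in the table was called higher by Cuffdiff, also at an unadjusted p below 0.05, and 2 were lower, with a median log2 fold of -0.54. Ppl and Evpl, which encode plakins of the desmosomes and cornified envelopes of upper layers, fell from 319 to 105 FPKM and from 212 to 92.5 FPKM, both at q = 0.000405 in the authors' deposited table. Dsp, the desmosomal plakin, stood at 453 and 598 FPKM and Macf1, a paralog of Dst that crosslinks actin and microtubules, at 54.7 and 59.3 FPKM, and neither passed the test. Of the keratins that the hemidesmosomal plakins can hold, 3 of 4 were higher and 1 lower. Krt17 rose from 420.3 to 8352 FPKM and Krt14 from 2292 to 13864 FPKM, with q = 0.000405 and q = 0.0337 in the authors' deposited table. Krt5 rose from 1670.5 to 5176 FPKM and Krt15 fell from 1078 to 127 FPKM.

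Cd151 (ENSMUSG00000025510, chromosome 7, 148646992 to 148657378, mm9) encodes a tetraspanin that associates with laminin-binding integrins and sits in hemidesmosomes. It rose 1.87-fold, from 40.4 to 75.4 FPKM (q = 0.000405, the authors' deposited table). The level of Itga6 relative to Cd151 was 1.15 in the negative and 3.51 in the positive fraction. Other tetraspanins were higher in 5 of 10 genes and lower in 1, with a median log2 fold of 0.07. Tspan3 rose from 49.1 to 129 FPKM, Cd81 from 73.8 to 170 FPKM and Cd9 from 446 to 869 FPKM, and Tspan1 fell from 2.89 to 0.211 FPKM. Among those that did not pass, Cd82 stood at 19.8 and 13.6 FPKM, Tspan4 at 13.6 and 6.73 FPKM and Cd37 at 6.66 and 2.48 FPKM.

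The loci of Cd151 and Plec each overlap another tested gene, and the strand setting of the count is not given in the sources used here. Efcab4a, in the locus of Cd151, stood at 12.0 and 7.22 FPKM (q = 0.653, the authors' deposited table). Parp10, in the locus of Plec, stood at 26.8 and 5.24 FPKM (q = 0.143, the authors' deposited table). Both ran opposite in sign to the member whose locus field they share. Whether reads were shared between them was not tested.

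Col4a3bp (ENSMUSG00000021669, chromosome 13, 97312689 to 97410122, mm9) was the gene that did not pass. Its FPKM was 9.58 in the negative and 12.3 in the positive fraction, a ratio of 1.28 with p = 0.0530 and q = 0.145 in the authors' deposited table. Genes of ceramide transfer and sphingomyelin synthesis, the pathway of its product, were higher in 1 of 11 tested and lower in 2, with a median log2 fold of 0.02. Sgms2, a sphingomyelin synthase, rose from 0.735 to 2.32 FPKM. Sptlc1 and Sptlc2, subunits of the enzyme that starts sphingolipid synthesis, fell from 129 to 65.9 FPKM and from 207 to 133 FPKM. Vapa, which anchors the transfer protein at the endoplasmic reticulum, stood at 86.0 and 114 FPKM, Csnk1g2 at 48.7 and 59.9 FPKM and Vapb at 33.0 and 37.1 FPKM, and none of these passed. Col4a3 itself was at 0.0266 and 0.223 FPKM and was not tested.

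The order of the 9 levels differed between the fractions. In Tomato-negative cells it ran from Col17a1 through Itga6, Cd151, Dst, Itgb4, Lamb3, Plec and Col4a3bp down to Lama3, a span of 9.78-fold. In Tomato-positive cells it ran from Col17a1 through Itga6, Itgb4, Lama3, Lamb3, Cd151, Dst and Plec down to Col4a3bp, a span of 24.0-fold. Without values per sample it cannot be said which neighbours in these orders differ beyond their spread. Summed, the 9 genes came to 284 FPKM in the negative and 1015 FPKM in the positive fraction.

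Beyond the hemidesmosome, genes of the anchoring fibril and other parts of the basement membrane were higher in 5 of 9 tested by Cuffdiff and lower in 0, with a median log2 fold of 2.05. At an unadjusted p below 0.05 the latter count was 1, for Col4a6 at 0.812 and 0.441 FPKM. Col18a1 had the largest called fold, from 6.13 to 46.2 FPKM, followed by Col4a2, from 2.61 to 15.6 FPKM. Its partner chain Col4a1 rose from 4.34 to 23.2 FPKM, but these neighbours share a locus in the table. Col7a1, whose product forms the fibrils that tie laminin-332 to the dermis or lamina propria, rose from 9.45 to 39.2 FPKM, at q = 0.000405 in the authors' deposited table. The perlecan gene Hspg2 rose from 8.08 to 16.9 FPKM (q = 0.0416, the authors' deposited table). Nid1 (3.93 and 3.25 FPKM), Col4a5 (2.61 and 2.92 FPKM) and Nid2 (0.170 and 1.88 FPKM) did not pass.

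Proteases that process laminin-332 or shed the Col17a1 ectodomain were higher in 6 of 9 tested genes and lower in 1, with a median log2 fold of 0.87. Bmp1, which cleaves the laminin chains after secretion, rose from 9.56 to 26.3 FPKM. Mmp9 had the largest called rise of the list, from 1.80 to 7.38 FPKM, followed by the plasminogen activator Plau, from 20.3 to 77.5 FPKM. Mmp2, a gelatinase that can also cut laminin-332, fell from 33.3 to 7.78 FPKM. Of the sheddases, Adam10 rose from 22.2 to 40.7 FPKM, and Adam17 (28.8 and 22.9 FPKM) and Adam9 (9.74 and 12.8 FPKM) did not pass.

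Kinases and receptors that act on hemidesmosome turnover were higher in 5 of 12 genes and lower in 1, with a median log2 fold of 0.39. The focal adhesion kinase Ptk2 rose from 5.52 to 29.9 FPKM and Src from 10.6 to 43.8 FPKM, both at q = 0.000405 in the authors' deposited table. Met, a receptor that signals together with the integrin, rose from 3.72 to 12.0 FPKM. Erbb2, another of its signalling partners, fell from 29.0 to 16.6 FPKM. Ppp3ca (56.6 and 59.2 FPKM), Prkcd (32.1 and 36.0 FPKM) and Fyn (20.3 and 9.53 FPKM) did not pass. Genes of focal contacts, the actin-linked alternative to hemidesmosomes, numbered 8, with 3 higher, 1 lower and a median log2 fold of 0.52. Fermt1, a kindlin of epithelia, rose from 6.81 to 21.4 FPKM and Pxn, which encodes paxillin, from 11.0 to 33.6 FPKM, while Kank2 fell from 4.12 to 1.17 FPKM. Tln1 (38.9 and 36.9 FPKM), Ilk (32.4 and 24.6 FPKM) and Parva (14.5 and 26.9 FPKM) did not pass.

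**Figure D3:**
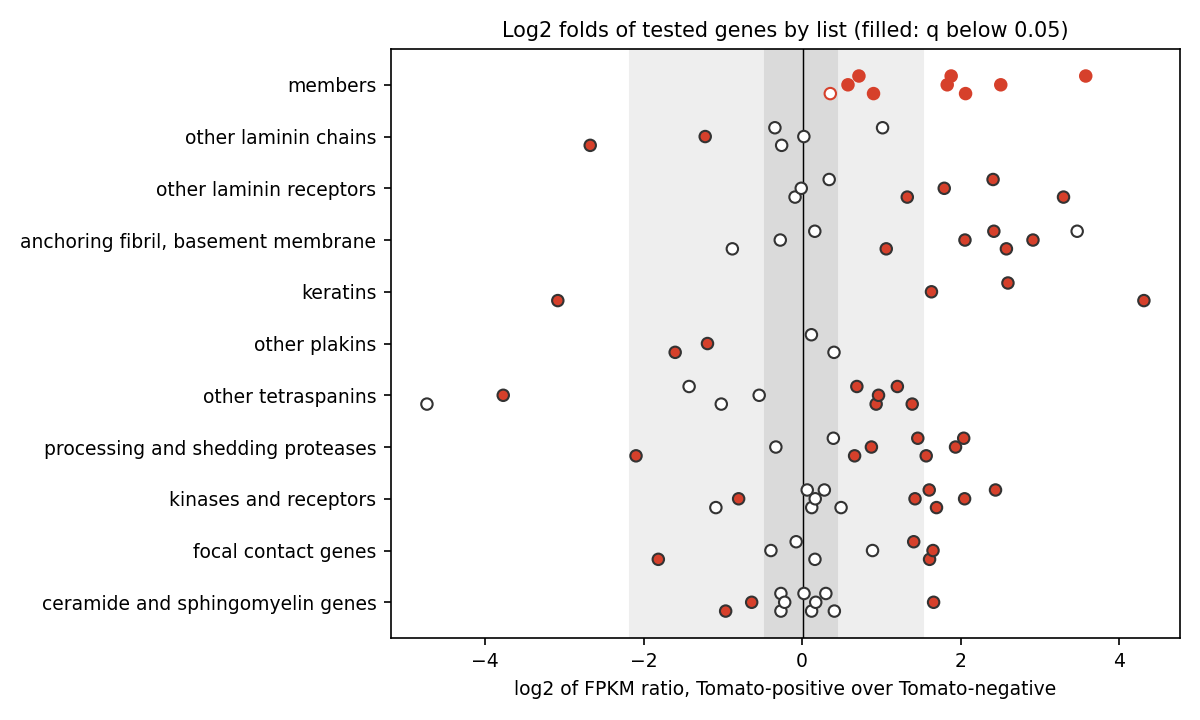
Log2 of the FPKM ratio, Tomato-positive over Tomato-negative, for each tested gene of the 9 and of the related lists (filled, q below 0.05; open, not), with bands from percentile 25 to 75 and from 5 to 95 of the tested genes and a line at their median of 0.02. The 9 genes lie between 0.36 and 3.58, and 5 of them lie beyond the upper edge of the wider band, at 1.52.

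Most basal keratinocyte markers moved with these genes, and so did markers of some other cells. In RNA from sorted pools, more cells of a type and more RNA per cell cannot be told apart. Among 9 basal markers 7 were called higher. Of the 9, Itga3, Itgb1, Bcam, Krt5, Krt14 and Krt15 were already counted above with the laminin receptors or keratins. Krt15 was called lower, from 1078 to 127 FPKM, and Bcam did not pass, at 53.4 and 50.1 FPKM. The summed FPKM of the 9 over tested rows went from 5230 to 19565. Most of that sum came from Krt14 and Krt5, and without Krt5, Krt14 and Krt15 it went from 189 to 397 FPKM. Of the 13 tested rows of suprabasal markers, 12 were lower and 0 higher, and their sum went from 38841 to 18393 FPKM. Krt4 and Krt13 of that list carry Cuffdiff's status for excess fragments in place of a test. They were listed at 0 FPKM in the negative fraction and at 4320 and 15058 FPKM in the positive one. With them the sum stood at 38841 and 37771 FPKM. A 0 under that status may stand for a skipped count, so the sum with these rows is not a like comparison of the fractions. Read against single genes, the fold of Lama3 alone exceeded that of Krt14 (6.05-fold). The folds of Lama3, Itga6, Lamb3, Itgb4 and Col17a1 exceeded that of Krt5 (3.10-fold). Cd151 also exceeded the basal transcription factor gene Trp63 (1.67-fold) and, at 1.87-fold, stood beside Epcam (1.85-fold). No error is attached to these contrasts and they were not tested.

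Both fractions were sorted for EpCAM, a gate that should remove most endothelial, muscle, Schwann, fibroblast and immune cells, and their markers were measured all the same. Endothelial cells also express Itga6, Itgb4 and Cd151, and of 10 markers of theirs 5 were called higher and 1 lower, with sums of 65.4 and 87.6 FPKM. Neutrophil markers were higher in all 5 tested, with sums of 1407 and 10930.5 FPKM, most of it from S100a8 and S100a9, which keratinocytes express too. Without these it went from 4.62 to 41.8 FPKM. Skeletal muscle expresses Dst and Plec, and Schwann cells express Itgb4. Of 10 muscle markers 9 were lower and 0 higher, with sums of 1778 and 134 FPKM. Of 6 tested Schwann cell markers 1 was lower and 0 higher, with sums of 31.8 and 15.0 FPKM, and Sox10 was listed at 0.178 and 0 FPKM. Fibroblast and pericyte markers numbered 10, with 9 lower and 1 higher (740.5 and 210 FPKM in sum). Gland and simple epithelial markers numbered 8, with 6 lower and 1 higher (203 and 22.1 FPKM), and 6 of 7 macrophage markers were lower (362 and 106 FPKM). Of 5 tested T cell markers 1 was lower (25.7 and 5.71 FPKM). Apart from Sox10 and the untested Krt4 and Krt13, no marker of these lists was at 0 in either fraction. The part of these cells in the levels of the 9 genes was not tested. The counts of 0 among these marker lists were also 0 at an unadjusted p below 0.05 from Cuffdiff.

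**Figure D4:**
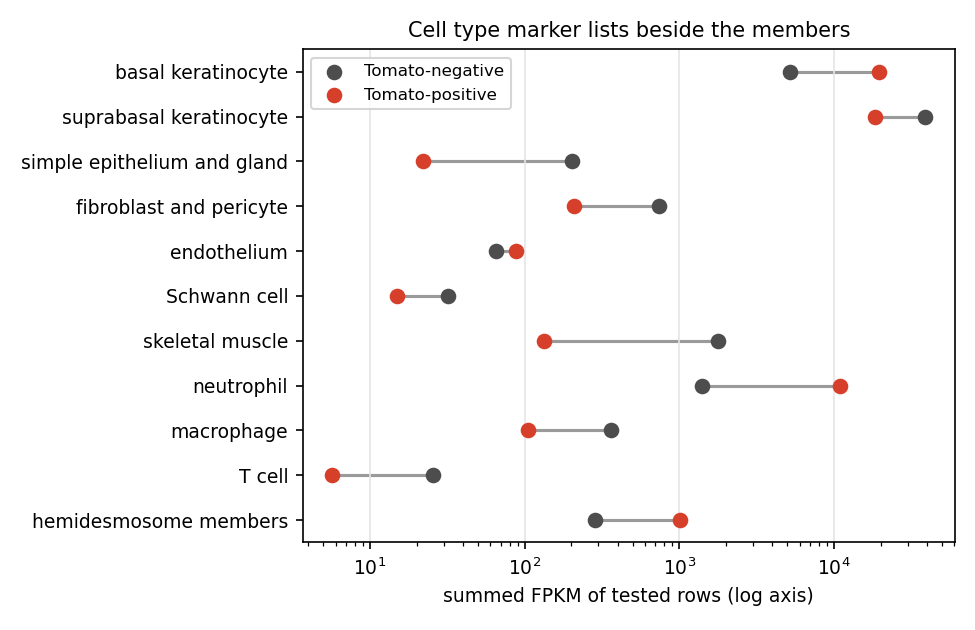
Summed FPKM over the tested rows of each cell type marker list and over the 9 hemidesmosome and laminin-332 genes, on a log axis, 1 value per fraction. The basal keratinocyte, neutrophil and endothelial sums and that of the 9 genes (284 and 1015 FPKM) are higher in Tomato-positive cells, and the other 7 sums are lower, the suprabasal one without the untested Krt4 and Krt13.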

How the data were processed

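The labels' protocols describe digestion of the tumours with collagenase and dispase, sorting, RNA isolation with a micro column kit and KAPA libraries. The submitters' processing notes name TopHat, Cuffdiff and mm9, and versions, annotation and strand setting were not found in the sources used here. The table holds, per its file headers, 1 FPKM value that the authors computed per gene and fraction. The p-values and q-values are the authors' own, deposited with the FPKM, and a Benjamini-Hochberg adjustment of the deposited p-values over the 16219 tested genes gave the deposited q within 5.27e-07. The deposited log2 column was not used, because many of its cells hold a spreadsheet error, and log2 folds were computed from FPKM.

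The genes and the lists beside them were chosen with earlier results of these data known, so they are not independent of them. All 9 genes were named, together with Bmi1, Epcam and the other laminin chains given. From each related list the called genes with the largest and second largest log2 fold in each direction were named, and of those that did not pass, up to 3 with the highest FPKM. The remaining genes named from those lists were chosen after their values were seen. Of the genes in the fixed lists, 1 was left out of every list count and is not reported here. The symbols Eppk1, Cers2, Cers3 and Adgre1 matched no row. Medians of log2 folds use tested genes with values above 0 in both fractions. The call and motif steps were tested on simulated data. Promoter windows are RefSeq's in GRCm38.p6, matched by symbol or synonym. The software was pandas 2.3.3, SciPy 1.17.1 and NumPy 2.4.6 under Python 3.11.15, with matplotlib 3.10.9 for plots.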

Additional observations from a re-analysis of the deposited data

How the results depend on the processing

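The count of 8 genes called higher was also 8 at q below 0.01, at an unadjusted p below 0.05 and with a floor of 1 FPKM for the higher value. It was 7 after centring on the median with a minimum of 1.5-fold. It was 5 with a minimum of 2-fold, and 2 when only genes that share a locus with no other row were kept, a filter that leaves 3 of the 9, Col17a1, Lamb3 and Col4a3bp. When only loci shared with another tested gene were left out, an alternative chosen after seeing the data, 6 of 7 were called higher. None of the 9 was called lower under any of these 7 alternatives. Of all 16219 tested genes 2106 were called higher, and 1153 with a minimum of 2-fold. The count was 1487 at q below 0.01, 2879 at an unadjusted p below 0.05 and 2092 with the floor of 1 FPKM. It was 1875 after centring with a minimum of 1.5-fold. Of 9417 tested genes that share a locus with no other row, 1476 were called higher. Of 11696 that share a locus with no other tested gene, 1819 were. Apart from the 1153, the counts over the table stayed within 1.5 times the main ones. The log2 folds of the 9 genes kept their direction in all 45 values under pseudocounts of 1 and 0.1 FPKM, centring and both rescalings, and moved by at most 0.15. No sample could be left out in turn, because the table joins the samples of each fraction. No paired analysis was possible because the columns carry no replicate numbers. The depth behind each value is unknown, and the q-values cannot be read as spread between animals.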

Other observations

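The tetraspanin genes Cd151 and Tspan4 lie on chromosome 7 with 3760 bases between their loci, a gap that holds 1 other tested gene. Cd151 rose 1.87-fold, and Tspan4 had a ratio of 0.493, with q = 0.163 in the authors' deposited table.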
